A study of Mus musculus with 6 samples.

Results

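Megakaryocytes are the large blood cells that shed platelets, and 10 genes that mark this lineage were examined in embryonic mouse ventricles with and without knockdown of the lncRNA Tbx5ua. The genes are Pf4, Ppbp, Gp1ba, Gp1bb, Gp9, Gp6, Clec1b, Itga2b, Itgb3 and Tubb1. They were chosen by their known role in megakaryocytes and platelets after the difference of Tubb1 between the groups of these data had been seen, and each was taken as the row of the deposited table that carries its symbol. All 10 were found among the 23284 genes of the table. Because the values of these same groups were in view when the genes were picked, the difference between the groups is given below as a description, with no test.

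RNA-seq had been performed on heart ventricles of C57BL/6 embryos at E9.5. The WT group consisted of 3 tetraploid chimeric embryos from wild type ES cells, and the KD group of 3 such embryos from ES cells labelled Tbx5ua -/-. In the KD ES cells, polyadenylation signals had been inserted on both alleles of Tbx5ua by CRISPR/Cas9. Both groups share the C57BL/6 background and the derivation of the embryo proper from ES cells. The study worked with more than 1 KD ES cell line, and which line gave the sequenced embryos is not given in the sources used here. Libraries were made from 10 ng of total RNA by Smart-Seq2, a full-length cDNA method for small inputs, with 12 and 9 cycles of PCR. For each gene the table lists 1 FPKM per group (a fragment number corrected for the length of the transcript and the total mapped in the library). It holds no value of a single embryo and no read count, so no SD and no test over embryos could be computed from it, and the number of embryos that show a difference and the depth of the libraries are unknown. The authors' own test results in the table were not used.

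Platelets stop bleeding by adhering to an injured wall, becoming activated and clumping together. The receptor complex GPIb-IX-V catches von Willebrand factor, GPVI and CLEC-2 are activating receptors, and the integrin αIIbβ3 binds fibrinogen between platelets. The α-granules release chemokines, and a ring of microtubules built with a lineage-restricted β-tubulin gives the platelet its disc shape. In the mouse embryo the earliest megakaryocytes arise in the yolk sac beside primitive red cells and enter the circulation, so that blood inside a dissected ventricle can carry their RNA. In bulk tissue, more cells of a type and more RNA per cell cannot be told apart.

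The promoters of 9 of the 10 genes matched the RefSeq promoter table of build GRCm38.p6, the patch release of the mm10 build to which the deposited positions refer. The gene without an entry is Itgb3. The table covers 250 bases before and 50 bases after the annotated start. Both strands were searched for AGATAA or TGATAA, letters bound by GATA factors such as GATA1, and for CGGAAG or AGGAAG, letters bound by ETS factors such as FLI1. The GATA and ETS factors are well-known regulators of megakaryocyte genes. Sequences are shown 5′ to 3′ along the gene for the genes with the 4 largest differences among those of at least 1 FPKM in either group, and for Gp1ba, whose window holds the most matches of both kinds together. Capitals mark the matches, on either strand.
Gp9, chr6:87777820-87778119, plus strand: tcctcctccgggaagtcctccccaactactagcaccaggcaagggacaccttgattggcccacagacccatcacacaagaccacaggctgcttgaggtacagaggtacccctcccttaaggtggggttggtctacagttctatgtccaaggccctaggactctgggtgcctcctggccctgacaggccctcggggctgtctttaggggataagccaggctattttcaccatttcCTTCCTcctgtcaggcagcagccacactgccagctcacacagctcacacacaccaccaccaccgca
Tubb1, chr2:174450345-174450644, plus strand: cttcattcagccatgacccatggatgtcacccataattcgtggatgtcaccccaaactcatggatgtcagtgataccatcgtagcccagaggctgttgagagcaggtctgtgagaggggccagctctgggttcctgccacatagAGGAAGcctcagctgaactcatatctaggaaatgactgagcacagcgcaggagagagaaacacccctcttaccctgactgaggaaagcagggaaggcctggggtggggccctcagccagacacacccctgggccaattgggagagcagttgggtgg
Clec1b, chr6:129397047-129397346, plus strand: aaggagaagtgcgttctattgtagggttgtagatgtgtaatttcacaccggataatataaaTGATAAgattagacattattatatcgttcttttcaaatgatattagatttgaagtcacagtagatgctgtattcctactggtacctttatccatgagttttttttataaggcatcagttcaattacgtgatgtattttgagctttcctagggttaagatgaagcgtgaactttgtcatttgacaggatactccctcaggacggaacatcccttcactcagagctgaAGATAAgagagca
Pf4, chr5:90772185-90772484, plus strand: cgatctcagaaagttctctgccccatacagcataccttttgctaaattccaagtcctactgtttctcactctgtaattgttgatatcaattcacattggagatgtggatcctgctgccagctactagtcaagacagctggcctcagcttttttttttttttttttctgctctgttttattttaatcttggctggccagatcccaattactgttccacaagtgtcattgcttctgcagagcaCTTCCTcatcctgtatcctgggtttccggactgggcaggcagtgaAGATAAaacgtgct
Gp1ba, chr11:70638872-70639171, plus strand: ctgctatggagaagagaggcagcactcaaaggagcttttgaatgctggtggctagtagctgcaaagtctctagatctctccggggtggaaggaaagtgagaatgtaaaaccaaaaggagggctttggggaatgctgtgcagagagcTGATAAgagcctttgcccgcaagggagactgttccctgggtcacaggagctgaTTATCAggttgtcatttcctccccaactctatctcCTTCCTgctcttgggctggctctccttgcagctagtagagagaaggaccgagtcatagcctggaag

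GATA letters were present in 4 of the 9 promoters, those of Pf4, Gp1ba, Gp6 and Clec1b, and in 18.6% of all 32851 promoters of the table. ETS letters were present in 6 of the 9, those of Pf4, Tubb1, Gp1ba, Gp1bb, Gp9 and Itga2b, and in 46.5% of all promoters. Pf4 and Gp1ba held both kinds, as did 7.70% of all promoters. The ETS letters of Pf4, Gp1ba and Gp9 began 9, 16 and 16 bases before the start. The Ppbp window held neither kind, which says only that these letters are not in this window. No match overlapped another, and a match is a description of letters, not evidence that a factor binds.

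**Figure D1:**
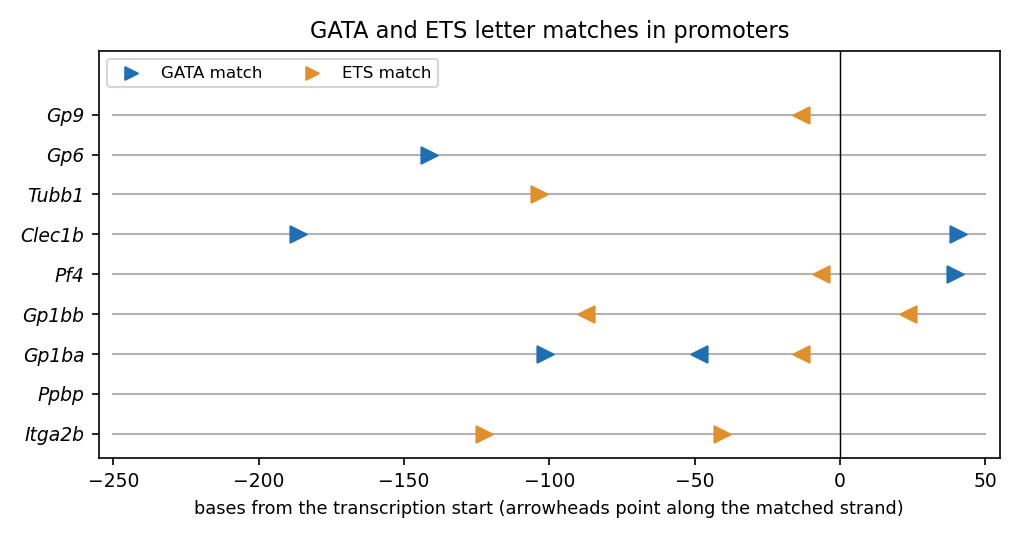
Matches to the GATA letters (blue) and ETS letters (orange) in the promoters of 9 genes, plotted by distance in bases from the annotated transcription start, with genes ordered by fold change from Itga2b (lowest) to Gp9. Arrowheads point right for a match on the strand of the gene and left for the other strand; GATA letters are in 4 and ETS letters in 6 of the 9 windows.

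All 10 genes had a higher group value in KD than in WT, while 52.0% of the 17383 genes above 0 in either group did. For Itgb3 the difference was only 0.0117 FPKM. Fold changes were computed as KD over WT on the scale of FPKM + 0.1, which understates differences of genes with low values. On that scale the median log2 fold change over the 10 genes was 1.14, beside 0.01 over the genes above 0 in either group. For counts, a difference of at least 1.5-fold was required in genes with at least 1 FPKM in either group. Of the 10 genes, 9 reached 1 FPKM in either group and 7 did so in both, Gp6 being below 1 FPKM in both. Of the 9, 7 were higher by 1.5-fold in KD (Gp9, Tubb1, Clec1b, Pf4, Gp1bb, Gp1ba and Ppbp) and 0 were lower. The background was 4.48% of 11606 genes higher and 3.10% lower by this measure. Gp9 and Gp1ba passed the 1 FPKM limit only through the KD group. Among the 7 genes with at least 1 FPKM in both groups, 5 were higher by 1.5-fold, beside 2.75% of 11001 genes. Gp1ba and Ppbp no longer reached 1.5-fold with a pseudocount of 1, where their log2 fold changes were 0.39 and 0.56. As the genes were picked with values of this contrast known, the background stands beside these counts and nothing is read from it.

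Low values vary more, so the share was also taken near the level of the genes, within limits set after their values had been seen. Of the 8 genes whose higher group value lay from 1 to 6 FPKM, 6 were higher by 1.5-fold. Among these 6, Gp9 and Gp1ba reached the range only through the KD group. In that range 9.03% of 4187 genes were higher and 6.23% lower by the same fold. Pf4 lies far above this range, and of 1824 genes whose higher group value lay from 40 to 200 FPKM, 1.15% were higher by 1.5-fold. Pf4 itself falls in that range only through the KD group, its WT value being 38.5 FPKM. As the limits were set with the values known, these shares stand beside the genes and nothing is read from them. At the threshold itself, Ppbp (1.67-fold) and Gp1ba (1.68-fold) lay just inside and Itga2b (1.47-fold) just outside.

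**Figure D2:**
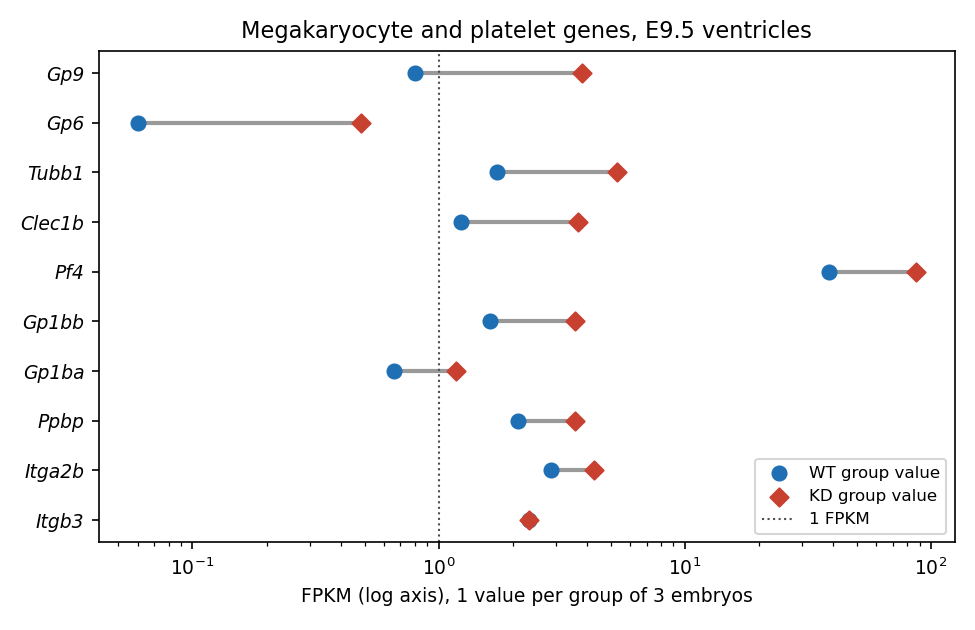
FPKM group values of the 10 genes in WT (blue circles) and KD (red diamonds) on a log axis, 1 value per group of 3 embryos, ordered by fold change. Each KD value lies to the right of its WT value, by the widest distance for Gp6 and Gp9, while the points of Itgb3 coincide.

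Among the chemokines, Pf4 (platelet factor 4, CXCL4), a heparin-binding protein of the α-granules, was the most abundant of the 10 genes, at 38.5 FPKM in WT against 86.9 FPKM in KD. This is a 2.25-fold higher value (log2 fold change 1.17), and its size hardly depends on the pseudocount because the levels are high. Pf4 made up 74.2% of the summed FPKM of the 10 genes in WT and 75.5% in KD. Its neighbour Ppbp, the precursor of the neutrophil-attracting chemokine CXCL7, had 2.10 FPKM in WT against 3.58 FPKM in KD, a 1.67-fold difference (log2 fold change 0.74). The pair lie next to each other on the plus strand of chromosome 5, Ppbp at chr5:90768518-90770060 and Pf4 at chr5:90772435-90773383. Despite this closeness the Pf4 level was 18.3 times that of Ppbp in WT and 24.3 times in KD.

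The GPIb-IX-V complex consists of GPIbα, which carries the von Willebrand factor site, GPIbβ, GPIX and GPV, and all 3 of its subunit genes among the 10 were higher in KD. Gp9, at chr6:87778136-87779762, had 0.804 FPKM in WT against 3.81 FPKM in KD. Its log2 fold change of 2.11 (4.33-fold) was the largest of the 10 on the scale described above. The value was 1.42 with a pseudocount of 1 and 2.25 with none, and with none Gp6 was higher at 3.02. Because Gp9 passed the 1 FPKM limit only through the KD group, no rank among all genes is read from it. Gp1bb had 1.61 FPKM in WT against 3.58 FPKM in KD, 2.16-fold higher (log2 fold change 1.11). The locus of Gp1bb (chr16:18620319-18629938) overlaps that of Sept5 in the table, so the share of reads given to each gene is uncertain. Sept5 itself was below 1 FPKM in both groups. Gp1ba (chr11:70639122-70642055) had the smallest difference of the 3, with 0.661 FPKM in WT against 1.18 FPKM in KD, 1.68-fold higher (log2 fold change 0.75). Gp5, the remaining subunit, which was not among the 10, had 1.20 FPKM in WT against 2.21 FPKM in KD (1.78-fold).

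The activating receptors differed in the same direction at low levels. Clec1b (chr6:129397297-129405413) encodes CLEC-2, the receptor for podoplanin that keeps lymphatic vessels apart from blood vessels. It had 1.23 FPKM in WT against 3.70 FPKM in KD, 2.86-fold higher (log2 fold change 1.52). Gp6 (chr7:4368713-4397744, minus strand) encodes the collagen receptor GPVI and was the lowest of the 10, with 0.0600 FPKM in WT against 0.486 FPKM in KD. Its log2 fold change of 1.87 moves to 0.49 with a pseudocount of 1 and to 3.02 with none, so the size of this difference is poorly fixed. With its longest coding transcript of 5900 bases, the Gp6 values correspond to about 0.354 and 2.87 FPM (the FPKM value times the length in kilobases), compared with 22.6 and 51.1 FPM for Pf4 (588 bases). Fcer1g, which encodes the signalling chain that GPVI needs at the cell surface, had 1.82 FPKM in WT against 2.40 FPKM in KD (1.30-fold).

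The chains of the fibrinogen receptor differed least. Itga2b, the αIIb chain and an early marker of embryonic blood progenitors as well as of megakaryocytes, had 2.86 FPKM in WT against 4.26 FPKM in KD, 1.47-fold higher (log2 fold change 0.56). Itgb3, the β3 chain, which also pairs with αv in endothelial and other cells, had 2.33 FPKM in WT against 2.34 FPKM in KD (log2 fold change 0.01). Both lie on chromosome 11, at chr11:102453297-102469883 and chr11:104608000-104670471. Per length, the Itga2b level was 1.23 times that of Itgb3 in WT and 1.82 times in KD. Itgav, the αv chain, had 4.0 FPKM in WT against 3.44 FPKM in KD.

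Tubb1 (chr2:174450695-174457882) encodes β1-tubulin, the isotype of the platelet microtubule ring. It had 1.72 FPKM in WT against 5.29 FPKM in KD, 2.97-fold higher (log2 fold change 1.57). Its difference had been seen before the set was composed, and the values of these groups were in view when the other genes were picked. Without Tubb1, 6 of 8 genes of at least 1 FPKM in either group were higher by 1.5-fold, a count not free of that choice. Gp9 and Gp1ba, counted among the 6, passed the 1 FPKM limit only through the KD group. The share of all genes given above, 4.48%, stands beside this count and nothing is read from it. Of the other 7 β-tubulin genes, 1 was higher by 1.5-fold, Tubb3, the isotype typical of neurons, with 12.2 FPKM in WT against 26.9 FPKM in KD (2.20-fold). The most abundant isotype, Tubb5, had 1297 FPKM in WT against 1272 FPKM in KD. Tubb1 made up 0.0798% of the summed β-tubulin FPKM in WT and 0.255% in KD, while the family total was 2149 and 2069 FPKM.

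**Figure D3:**
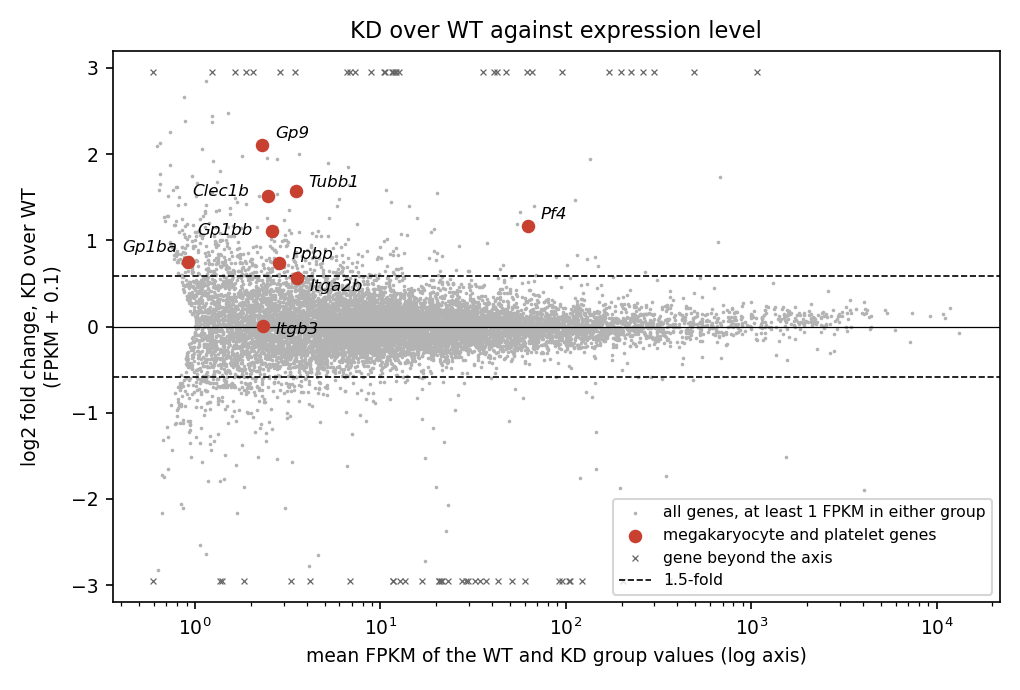
Log2 fold change of KD over WT (FPKM + 0.1) against the mean of the group values on a log axis, for the 11606 genes of at least 1 FPKM in either group (grey) and the 9 of the 10 genes that reach it (red). Dashed lines mark 1.5-fold, and crosses at the edges stand for 32 genes above and 33 below the axis limit of 3; the red points lie above 0, with Itgb3 on the line and Pf4 far to the right of the others.

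The wider platelet programme was described with 6 lists of genes of known role, of which 58 genes beside the 10 are in the table and 39 reached 1 FPKM in either group. Of these 39, 6 were higher by 1.5-fold in KD and 0 were lower, with a median log2 fold change of 0.14, beside 4.48% higher and 3.10% lower of all genes at that limit. In the range from 1 to 6 FPKM the share of all genes that were higher was 9.03%. Above 0 in either group there were 56 genes, 44 of them higher in KD by any amount, beside 52.0% of all genes. The 6 genes were Alox12, Treml1, P2ry1, Srgn, Gp5 and Plek. The first 4 passed the 1 FPKM limit only through the KD group, and among the 33 genes of at least 1 FPKM in both groups 2 were higher by 1.5-fold, beside 2.75% of all genes with at least 1 FPKM in both groups.

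The 6 genes are likewise known from platelets. Alox12, the platelet 12-lipoxygenase, had 0.548 FPKM in WT against 2.17 FPKM in KD, the largest fold among these 39 genes (3.50-fold). Treml1, a receptor stored in α-granules, had 0.849 FPKM in WT against 2.24 FPKM in KD (2.46-fold). P2ry1, an ADP receptor, had 0.471 FPKM in WT against 1.0 FPKM in KD (1.93-fold). Srgn, the proteoglycan that holds Pf4 in the granules, had 0.860 FPKM in WT against 1.75 FPKM in KD (1.92-fold). Plek, a major substrate of protein kinase C in platelets, had 1.11 FPKM in WT against 1.83 FPKM in KD (1.59-fold). Vwf, made by megakaryocytes and by endothelium, had 1.60 FPKM in WT against 2.33 FPKM in KD (1.43-fold).

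The transcription factors of the lineage and its cytokine receptors form a list of 14 genes. Of these, 13 reached 1 FPKM in either group, and 0 of them were higher or lower by 1.5-fold (median log2 fold change 0.14, from -0.14 to 0.45). By any amount, 13 of the 14 had a higher group value in KD, beside 52.0% of the genes above 0 in either group. With 7.58% of all genes at that limit past 1.5-fold in either direction, a count of 0 in a list of this size is near the background, as it is for the integrin list below. Gata1, needed for both red cells and megakaryocytes, had 2.80 FPKM in WT against 3.88 FPKM in KD. Fli1, an ETS factor of megakaryocytes and endothelium, had 9.22 FPKM in WT against 11.2 FPKM in KD, and Nfe2, needed for platelet release, had 1.92 and 2.09 FPKM. The highest gene of the list, Lyl1, had 20.4 FPKM in WT against 22.5 FPKM in KD. Most genes of the list also act in red cells or endothelium. In the list of the integrin αIIbβ3 and its activation, 0 of 7 genes were higher or lower by 1.5-fold, and Rap1b, a small GTPase and its most abundant gene, had 34.8 FPKM in WT against 32.1 FPKM in KD. In the list of GPIb-IX-V and GPVI receptors, the most abundant gene by the mean of both groups was Gp1bb, described above. The most abundant genes of the remaining 3 lists are not restricted to platelets and lay within 1.5-fold. Sparc had 188 FPKM in WT against 225 FPKM in KD, F2r 74.8 and 68.7 FPKM, and Arpc1b 79.3 and 87.6 FPKM.

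**Figure D4:**
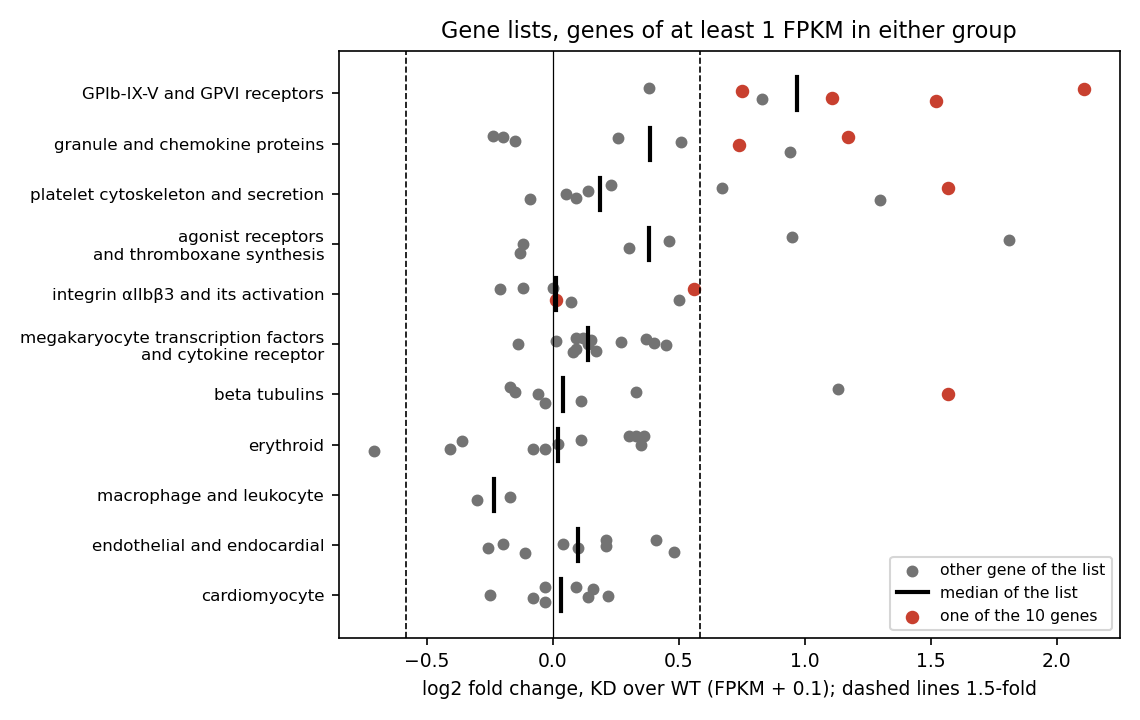
Log2 fold change of KD over WT (FPKM + 0.1) for genes of at least 1 FPKM in either group in 7 lists of platelet, megakaryocyte and tubulin genes and 4 lists of markers of other cell types; a gene may stand in more than 1 list. Red points are genes of the 10, grey points other genes, black bars list medians and dashed lines 1.5-fold. No plotted point of the marker lists lies beyond the right dashed line, which is near the background. The adult β-globin rows, described in the text, are not plotted.

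Markers of other cells of the ventricle and of blood were read beside these values, and their counts past 1.5-fold are near the background of 4.48% higher and 3.10% lower. Of 11 erythroid genes of the list with a row of their own, 0 were higher and 1, Ermap, was lower by 1.5-fold, with a median log2 fold change of 0.02 (from -0.71 to 0.36). Their summed level, set by the embryonic globins, was 11788 FPKM in WT against 11951 FPKM in KD. Adult β-globins stand outside this count, under other row names. Beta-s had 34.0 FPKM in WT against 54.2 FPKM in KD, past 1.5-fold higher (log2 fold change 0.67). At 1 shared locus, the joint row Hbb-b1,Hbb-b2 had 6.06 FPKM in WT against 16.6 FPKM in KD and Hbb-b2 had 5.05 and 1.10 FPKM, so the share of reads given to each of these near-identical genes is uncertain. The 10 genes summed to 51.8 FPKM in WT against 115 FPKM in KD, a ratio of 2.22, and without Pf4 to 13.4 and 28.2 FPKM. Of 13 macrophage and leukocyte markers only 2, Lyz2 and Spi1, reached 1 FPKM in either group, and 0 of these were higher or lower by 1.5-fold (log2 fold changes -0.30 and -0.17). By any amount, 10 of the 13 had a lower and 3 a higher group value in KD, and their sum, set by Lyz2, was 25.3 FPKM in WT against 19.2 FPKM in KD. Without Lyz2 the sum was 5.0 FPKM in WT against 2.72 FPKM in KD. Most of these values lie below the 1 FPKM limit. C1qa and C1qc, with only 0.0361 and 0.0744 FPKM in WT, were listed at 0 in KD. Mpo, a granule enzyme of myeloid cells, had 0.821 FPKM in WT against 0.130 FPKM in KD. Of the 3 with a higher value, Mrc1 had 0.233 FPKM in WT against 0.393 FPKM in KD. Endothelial and endocardial markers had a median log2 fold change of 0.10 with 0 of 9 past 1.5-fold, and a sum of 284 FPKM in WT against 349 FPKM in KD. Most of that difference came from Plvap, a protein of endothelial diaphragms, with 129 FPKM in WT against 179 FPKM in KD, and 3 of the 9 had a lower value in KD. For 9 cardiomyocyte markers, Actc1 was listed at 0 in both groups, and the other 8 summed to 34266 FPKM in WT against 35676 FPKM in KD. The part of blood content or of single embryos in the differences of the 10 genes was not tested. The paper reports right ventricular hypoplasia and irregular ventricular walls in KD embryos at E9.5, so the dissected tissue differed in form between the groups. The part of this in the differences was not tested either. The targeted lncRNA was not analysed here, and the labels of the groups are therefore unchecked in these values. In the paper, quantitative RT-PCR of E9.5 chimeric embryos gave a strongly reduced Tbx5ua level in KD, the direction that the labels give.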

How the data were processed

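RNA-seq of 3 WT and 3 KD E9.5 ventricle samples was used, grouped by their titles. The authors deposited 1 Cuffdiff table in FPKM, with TopHat, Bowtie2 and mm10 also named in the submitters' processing notes. Versions are not given in the sources used here. The authors' Cuffdiff run combined the 3 samples of a group into 1 value, labelled WT and KO, the latter taken as KD. The table also holds the authors' fold changes, test statistics, p-values and q-values, which were not used here, and 0 columns of single samples were left unused.

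Fold changes were computed as log2 of (KD + 0.1)/(WT + 0.1). Counts used genes of at least 1 FPKM in either group and a fold of 1.5. With 1 value per group, no test over samples could be run here. Whole reads could not be recovered from values combined over samples. Alternatives were pseudocounts of 1 and 0, other limits on low values, a larger fold of 2 and a smaller one, subtraction of the median of all genes, and removal of genes with overlapping loci. Older symbols were matched through RefSeq, and 5 of 122 listed symbols had no single row of their own, among them Mpig6b, whose older symbol G6b is listed too and has a row. Table starts are printed with 1 added, which then equalled the RefSeq gene start for 6 of the 10 genes. Depth-scaled fragment numbers (FPM) are FPKM times the longest GENCODE M21 coding transcript in kilobases. Named genes were all 10 genes and, of the wider lists, those past 1.5-fold and the most abundant gene; any other gene named was picked with its value known. The members and lists were chosen with earlier results of these data known. The fold and overlap computations were tested on constructed data. Python 3.11.15, NumPy 2.4.6, pandas 2.3.3 and Matplotlib 3.10.9 were used.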

Additional observations from a re-analysis of the deposited data

How the results depend on the processing

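No paired analysis was possible because embryos have no values of their own in the table, and leaving out each replicate was not run for the same reason. Of the 10 genes, 7 were higher by 1.5-fold and 0 lower. Under the alternatives 0 were lower throughout, and the number higher lay from 5 to 8 except with a limit of 5 FPKM in either group, where only Pf4 and Tubb1 were left and both, 2, were higher. Gp1ba and Ppbp lost their call with a pseudocount of 1 and at a fold of 2, Gp9 and Gp1ba with at least 1 FPKM in both groups, and Gp1ba with a mean of at least 1 FPKM. The median log2 fold change of the genes that passed the limit was 1.11. It was 0.81 with a pseudocount of 1, 1.16 with none, 1.14 with no limit on low values, 1.37 with a limit of 5 FPKM, 1.10 with the median of all genes subtracted, and 0.96 without overlapping loci, which removes Gp1bb. In alternatives added after seeing the data it was 1.14 with a mean of at least 1 FPKM and 0.93 without Tubb1. The share of all genes past 1.5-fold in either direction, 7.58%, was 3.66% with a pseudocount of 1, 16.2% with no limit, 4.58% with at least 1 FPKM in both groups and 3.51% with at least 5 FPKM in either. It was 2.49% at a fold of 2 and 21.5% at the smaller fold tried, and, added after seeing the data, 15.3% from 1 to 6 FPKM and 2.52% from 40 to 200 FPKM. No gene changed direction; Gp6 moved the most, as its level is the lowest. The spread between embryos and the depth, both unknown, limit what can be said of the genes near 1 FPKM, which are most of the 10.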

Other observations

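The genes that lie near the 10 were read as well. Within 50 kb of the 10 genes the table holds 17 other genes of at least 1 FPKM in either group. They lie beside Tubb1, Gp1ba, Gp6, Gp9, Itga2b and Itgb3, and none lies beside Pf4, Ppbp, Gp1bb or Clec1b. None of these 17 differed by 1.5-fold, near the background of 7.58% of all genes at that limit, and their log2 fold changes ran from -0.25 to 0.33. Beside Tubb1, Atp5e, a subunit of ATP synthase, had 1358 FPKM in WT against 1597 FPKM in KD, and Ctsz, a lysosomal protease, had 61.3 and 57.0 FPKM. Beside Itga2b, Grn, the progranulin gene, had 22.9 FPKM in WT against 23.3 FPKM in KD, and beside Itgb3, the myosin light chain gene Myl4 had 6082 and 5896 FPKM.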
